A study of Capra hircus with 29 samples.

Results

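The genes of the mitochondrial ribosome were described in goat oocytes. The members were all rows of the expression table whose gene symbol begins with MRPS or MRPL followed by a number, 89 of 21343 rows. MRPS stands for the small subunit and MRPL for the large subunit, with 34 and 55 rows. The rows carried 73 symbols, 26 MRPS and 47 MRPL, and all 73 symbols were found in the RefSeq gene table of the goat. A symbol was carried by more than 1 row in 11 cases, which made up 27 rows. MRPS30 and MRPS18A are proteins of the large subunit despite their symbols, and they were kept with MRPS here, except where structural classes are given, in which they count with the large subunit.

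The mitochondrial ribosome translates the few mRNAs encoded by mitochondrial DNA, which specify core subunits of the respiratory chain and of ATP synthase. Its ribosomal RNAs come from the mitochondrial genome, whereas its proteins are encoded in the nucleus, made in the cytosol and imported. Part of these proteins have counterparts in bacterial ribosomes and others are found only in mitochondria. Oocytes hold very large numbers of mitochondria, which are passed on to the embryo, and store maternal mRNAs during growth.

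The study asked how oocytes and granulosa cells differ between goat populations of high and low fertility during follicle growth. RNA of 29 oocyte samples was analysed here, and granulosa cells were not analysed here. All samples came from Ji'ning grey goats, and the treatment label holds only the group. Each sample was a pool of 2 to 3 oocytes. The study describes the oocytes of the high fertility group as pooled by follicle stage, and the oocytes of each stage as then divided into the samples. The goats behind a sample are not recorded. Oocytes of the high fertility population were taken from large (HLO), medium (HMO) and small (HSO) follicles. LLO, LMO and LSO were the same stages of the low fertility population. In the series text, the high fertility litters exceeded 3 kids and the low fertility litters stayed below 2, whereas the methods set 3 or more and 2 or fewer, so the exact limits are uncertain. Each group had 5 samples, except HSO with 4 (numbered 1, 3, 4 and 5). P-values therefore measure only the spread between these samples, which may be partly technical, and replication between goats cannot be read from them. Values were FPKM, fragments scaled by exon length and by the mapped fragments of the sample. FPKM do not give the number of fragments behind each value, so no counting interval is given. Since values are relative to all fragments of a sample, a lower FPKM means a smaller share of the RNA sequenced. Whether fewer oocytes of a pool held the RNA of a gene or each held less of it cannot be told apart.

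Of 13 rows of 12 oocyte markers, 8 were above 0.5 FPKM in all 29 samples (GDF9, BMP15, ZP2, ZP3, ZP4, OOEP, DDX4 and KIT). FIGLA was above it in 28 samples, 1 DAZL row in 21, NOBOX in 8 and NLRP5 in 5, and the other DAZL row was listed at 0. Of the granulosa markers, AMH, AMHR2 and HSD17B1 were listed at 0 in all samples, and FSHR, LHCGR and CYP19A1 stayed at 0.283 FPKM or less. GJA1 passed 0.5 FPKM in 19 samples (at most 4.23), INHBA in 10 (at most 5.21), FST in 5 (at most 1.54) and INHA in 1 (0.782). The 10 markers measured summed to 0.491 to 8.11 FPKM in a sample. The theca marker INSL3 was listed at 0 in all samples. Of 4 leukocyte markers, CD14 was listed at 0 throughout, PTPRC and CD3E stayed under 0.5 FPKM, and CD68 passed it in 2 samples (at most 0.646). Of the red cell markers, HBM was at 0.531 to 9.90 FPKM and ALAS2 at 0.464 or less.

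Most members were present in every group. A level above 0.5 FPKM in all 29 samples was found for 49 of 89 rows (55.1%), against 4575 of 21343 rows of the whole table (21.4%). The limit of 0.5 FPKM is the one the study used. For the small subunit it was 17 of 34 rows and for the large subunit 32 of 55. In total, 75 rows passed 0.5 FPKM in at least 4 samples, 14 passed it in fewer, and 8 of these 14 were listed at 0 in all 29 samples. Over the 29 samples the median FPKM was above 100 in 10 rows, between 10 and 100 in 34, between 1 and 10 in 24, and 1 or less in 21. The median of these medians was 9.09 FPKM, against 0.0879 FPKM over the whole table. By structural class, it was 7.67 FPKM for 20 small-subunit rows conserved in bacteria and 3.76 FPKM for 12 small-subunit rows particular to mitochondria. For the large subunit it was 18.4 FPKM for 31 conserved rows and 7.44 FPKM for 26 rows particular to mitochondria.

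**Figure D1:**
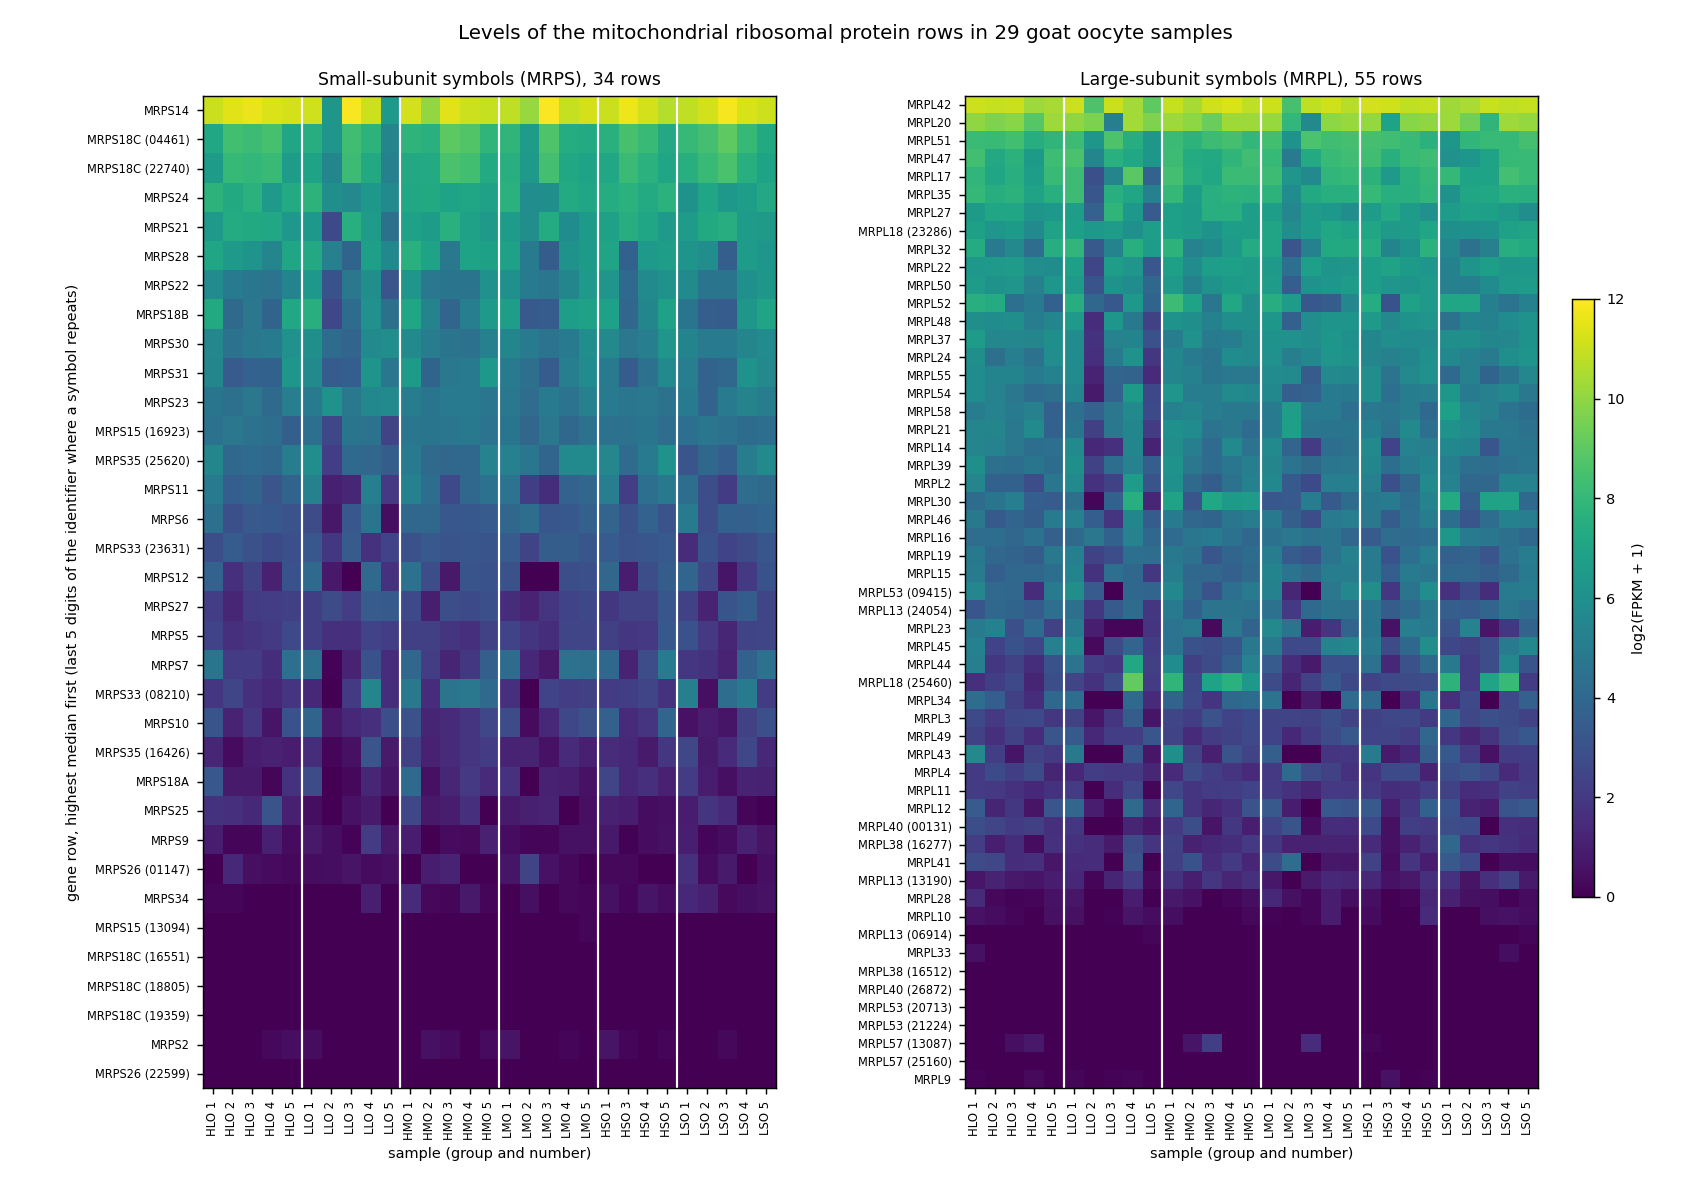
Level of each of the 89 rows (vertical axis, highest median first, MRPS left and MRPL right) in each of the 29 samples (horizontal axis, white lines between groups), as log2(FPKM + 1) by colour. MRPS14, MRPL42 and MRPL20 lead, the lowest rows are near 0 in every sample, and the columns of LLO 2 and LLO 5 are darker than their neighbours for many rows.

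The highest rows were MRPS14, a small-subunit protein conserved from bacteria, MRPL42, a large-subunit protein particular to mitochondria, and MRPL20, a conserved protein that binds the RNA of the large subunit. MRPS14 (ENSCHIG00000009993) had a median of 2229 FPKM, with a range of 79.5 to 3889. MRPL42 (ENSCHIG00000014921) had a median of 1981 FPKM (362 to 2522), and MRPL20 (ENSCHIG00000010545) a median of 1006 FPKM (34.4 to 1289). These 3 rows were the 3 highest members in 23 of 29 samples. MRPS14 was above MRPL42 in 20 samples, so the order of the first pair was not the same in every pool, whereas MRPL42 was above MRPL20 in 27. Together they held 52.6 to 68.2% of the summed FPKM of all members in a sample.

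MRPS14 was at 2069.5, 2858, 3209, 2529 and 2431 FPKM in HLO and at 2229, 79.5, 3763, 2202 and 90.5 FPKM in LLO (samples 1 to 5). In HMO it was at 2308, 1066, 2787, 2164 and 1942 FPKM, and in LMO at 1859, 1152, 3889, 1958 and 2382 FPKM. In HSO it was at 2085, 3340.2, 2328 and 1606 FPKM, and in LSO at 1844, 2344, 3613, 2493 and 2192 FPKM. LLO 2 and LLO 5 were far below the other 27 samples, and the 6 samples numbered 3 were among the highest. The group means were 2619 ± 433 (SD, n = 5) in HLO, 1673 ± 1581 (n = 5) in LLO, 2053 ± 633 (n = 5) in HMO, 2248 ± 1018 (n = 5) in LMO, 2339.8 ± 731 (n = 4) in HSO and 2497 ± 669 (n = 5) in LSO. At each stage, the means of the fertility populations differed by less than the larger SD of the pair.

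MRPL20, in contrast, was low in most samples numbered 3. It was at 931 FPKM in HLO 3, 34.4 in LLO 3, 616 in HMO 3, 51.0 in LMO 3, 123 in HSO 3 and 229 in LSO 3. In the other 23 samples it was between 249 and 1289 FPKM, with a median of 1036. MRPS14 in the samples numbered 3 was between 2787 and 3889 FPKM, and in the other 23 between 79.5 and 2858. Other rows differed in the same samples. MRPL53 (ENSCHIG00000009415) had a median of 2.34 FPKM in the 6 samples numbered 3 and 26.4 in the others, MRPL34 0.426 and 12, MRPL52 14.4 and 98.9, and MRPS28 13.1 and 95.9. MRPS rows made up 46.8 to 59.3% of the summed FPKM of members in samples numbered 3, and 20.7 to 56.0% in the others. The labels do not say what the number stands for, these samples were noticed after their values were seen, and no test was made.

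**Figure D2:**
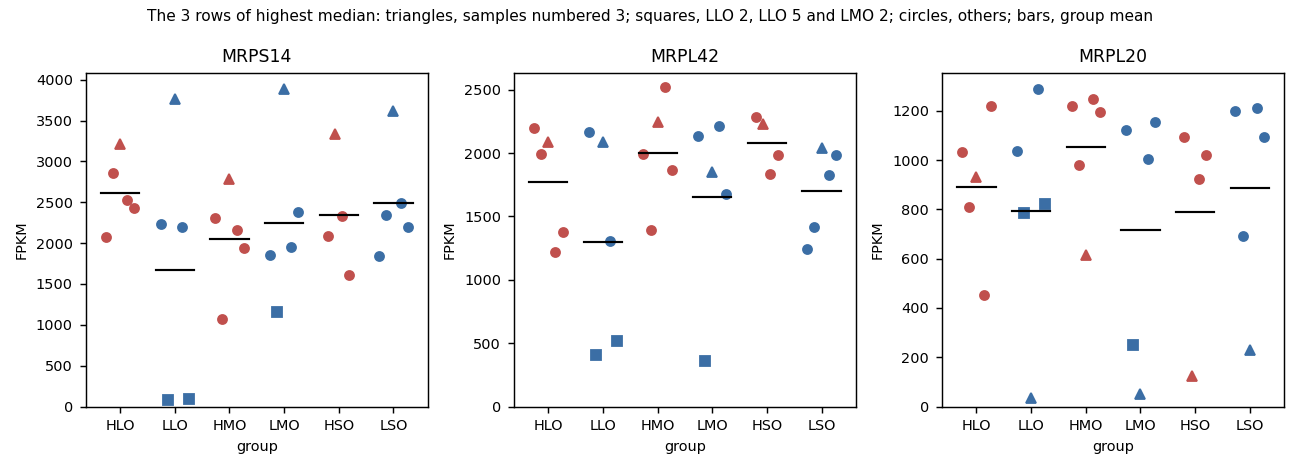
FPKM (vertical axis) of MRPS14, MRPL42 and MRPL20 by group (horizontal axis), red for high and blue for low fertility, with a bar at the group mean. Triangles are samples numbered 3, squares are LLO 2, LLO 5 and LMO 2, and circles are the other samples. The triangles lie between 2787 and 3889 for MRPS14 and between 34.4 and 931 for MRPL20.

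Next in level were MRPL51 with a median of 275 FPKM (68.2 to 394), a large-subunit protein particular to mitochondria, and MRPS18C, a small-subunit protein with paralogs in mammals. MRPS18C was carried by 5 rows, of which ENSCHIG00000004461 had a median of 229.6 FPKM and ENSCHIG00000022740 a median of 162 FPKM, and 3 were listed at 0 in all samples. These rows were at 499 and 377 FPKM in HMO 3 and at 42.3 and 35.9 FPKM in LLO 5. MRPL47 (212 FPKM), MRPL17 (210.4), MRPL35 (187) and MRPS24 (137) made up the rest of the rows with a median above 100.

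Several proteins with known roles, named after their values were seen, had medians below the 9.09 FPKM of the members. The median of medians over the whole table was 0.0879 FPKM. MRPL12, which forms the flexible stalk where translation factors bind, had a median of 2.90 FPKM (0 to 16.9). MRPL10, which anchors this stalk, had a median of 0.12 FPKM (0 to 1.68), and MRPL11 at its base 2.98 FPKM (0.0279 to 4.88). MRPS12, a protein of the decoding centre, had a median of 6.25 FPKM (0 to 22.3), and MRPL45, which faces the inner membrane at the tunnel exit, 8.18 FPKM (0.219 to 60.9). MRPS2, MRPL33, MRPL9, MRPS15 (ENSCHIG00000013094), MRPL13 (ENSCHIG00000006914), MRPL38 (ENSCHIG00000016512) and MRPL57 (ENSCHIG00000013087) had a median of 0 but were above 0 in at least 1 sample. The highest of these values was 3.69 FPKM for MRPL57.

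Copies of a symbol differed in level. MRPL18, a protein of the central protuberance, had 1 row with a description (ENSCHIG00000023286) at 50.8 to 140.0 FPKM and 1 without (ENSCHIG00000025460) at 1.37 to 562 FPKM. MRPS33 had rows at 1.91 to 10.7 (ENSCHIG00000023631) and 0 to 42.4 FPKM (ENSCHIG00000008210). MRPS35 had medians of 17.5 (ENSCHIG00000025620) and 1.47 FPKM (ENSCHIG00000016426), and MRPL13 medians of 16.1 (ENSCHIG00000024054), 1.27 (ENSCHIG00000013190) and 0 FPKM. Of MRPS15, MRPL38, MRPL40, MRPL53, MRPL57 and MRPS26, no more than 1 row each passed 0.5 FPKM in any sample. Only reads with a unique match were kept by the authors, so the values of near-identical copies are uncertain, and how reads were divided between copies was not tested.

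Summed over all 89 rows, a sample held between 2002 and 10381 FPKM. The lowest were LLO 2 (2002), LLO 5 (2447) and LMO 2 (3353), and the other 26 samples lay between 6128 and 10381. As a share of the FPKM total of the sample, members made up 0.576% in LLO 2 and 0.634% in LLO 5, and 1.51 to 2.2% in the other 27. LMO 2 was thus low in its sum but not far from the others in its share, and its FPKM total of 222697 was the lowest of all samples. By group, the summed FPKM was 8397 ± 1170 (SD, n = 5) in HLO, 6394 ± 3832 (n = 5) in LLO, 8849 ± 1672 (n = 5) in HMO, 7623 ± 2400 (n = 5) in LMO, 8702 ± 525 (n = 4) in HSO and 8318 ± 992 (n = 5) in LSO. These ranges overlapped in every pair of groups. Cytosolic ribosomal protein rows, given for comparison, also summed lowest in LLO 5 (7812 FPKM) and LLO 2 (13644), against 21229 to 38056 in the other 27 samples.

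**Figure D3:**
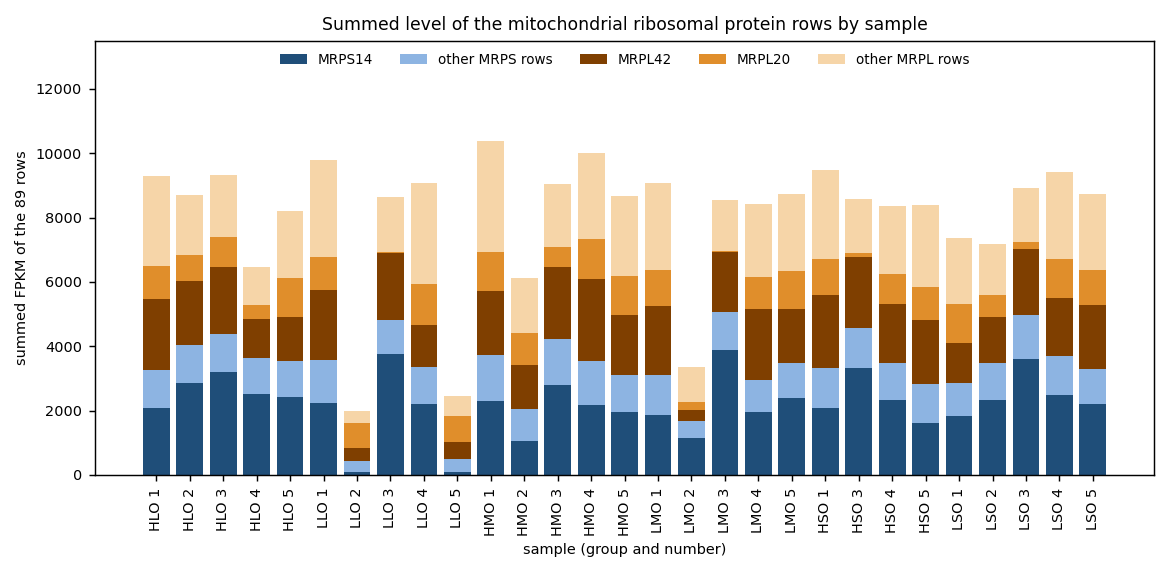
Summed FPKM of the 89 rows (vertical axis) in each sample (horizontal axis), with stacked parts for MRPS14, the other MRPS rows, MRPL42, MRPL20 and the other MRPL rows. LLO 2, LLO 5 and LMO 2 stand at 2002, 2447 and 3353, and the other 26 samples between 6128 and 10381.

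The low level of LLO 2 and LLO 5 was not shared by every member. Of the 75 rows above 0.5 FPKM in at least 4 samples, 34 were lower in both LLO 2 and LLO 5 than in LLO 1, LLO 3 and LLO 4, and 1 was higher in both. LLO 2 and LLO 5 were picked out by their low sum of members, which favours such a count. The share over all genes was not counted, so whether this is particular to the members cannot be told. The row that was higher was MRPS23, a small-subunit protein, at 71.4 and 53.2 FPKM against 27.0 to 47.2. MRPS14 was at 79.5 and 90.5 FPKM against 2202 to 3763, and MRPL55 at 1.27 and 1.66 against 13 to 54.4. In contrast, MRPL20 at 785 and 821 FPKM and the MRPL18 row with a description at 82.6 and 105 FPKM were within the range of the other LLO samples. LLO 2 held the lowest value of all 29 samples, alone or tied, in 35 of 75 rows. Of all 9692 genes above 0.5 FPKM in at least 4 samples, it did so in 26.9%. LLO 2 was picked out by its low sum of members, which favours the count of 35, so the shares are not compared.

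The spread between samples of a group was given for each row tested. The SD within groups of log2(FPKM + 1) had a median of 0.92 over 75 rows (0.36 to 2.06), against 0.55 over 9692 genes. The mean of the members in a sample varied with an SD of 0.61 within groups on the same scale.

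The fertility populations were then compared within each follicle stage, to ask which members differed between them. Fold changes were taken on log2(FPKM + 1), which understates the change of low rows, with high minus low fertility, by limma's moderated test. Every gene entered that passed 0.5 FPKM in 4 or more samples of the pair of groups. The limits were those the study drew, so that a row was called where its log2 fold change lay beyond 1 and its unadjusted p was under 0.05, and p-values were also adjusted over all genes by the Benjamini-Hochberg procedure.

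In large follicles, 4 of 70 members tested (5.71%) were called higher in HLO, against a background of 1.78% of all 8328 genes called higher. They were MRPS25, a small-subunit protein particular to mitochondria, and the large-subunit proteins MRPL40, MRPL55 and MRPL23, of which MRPL23 sits beside the exit tunnel. None of the 70 was called lower by limma (background 0.516%) or by the exact Wilcoxon test (background 0.252%). None passed limma's adjusted p (background 0%). An unadjusted p under 0.05 was found by limma for 4 (5.71%, against 4.14% of all genes). By the exact Wilcoxon test it was found for 3 (4.29%, against 2.47% of all genes).

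MRPS25 (ENSCHIG00000009931) was at 2.38, 2.22, 1.53, 7.67 and 1.09 FPKM in HLO and at 0.378, 0, 0.520, 0.823 and 0 FPKM in LLO. Every HLO sample was above every LLO sample, which held for 0.276% of all genes tested and for no other member, and no member had every HLO sample below (0.156% of all genes). The log2 fold change was 1.41 (SE 0.36), with an unadjusted p of 0.00188 and an adjusted p of 0.828 by limma. MRPL40 (ENSCHIG00000000131), a protein of the central protuberance, was at 6.28, 4.69, 3.26, 3.91 and 2.03 FPKM in HLO and at 2.91, 0, 0, 1.38 and 0.665 FPKM in LLO. The groups overlapped only through LLO 1, and the log2 fold change was 1.48 (SE 0.42) at an unadjusted p of 0.00328 and an adjusted p of 0.828 by limma.

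MRPL55 (ENSCHIG00000024153) was at 56.6, 41.4, 41.8, 28.9 and 38.2 FPKM in HLO and at 54.4, 1.27, 13.9, 13 and 1.66 FPKM in LLO. LLO 1 lay within HLO and the other 4 LLO samples below it, with a log2 fold change of 2.16 (SE 0.76) and an unadjusted p of 0.0141. MRPL23 (ENSCHIG00000019224) was at 30.5, 37.4, 6.5, 17.6 and 3.93 FPKM in HLO and at 30.4, 1.04, 0.108, 0.138 and 2.56 FPKM in LLO. Again LLO 1 alone lay within HLO, and the log2 fold change was 2.30 (SE 0.88) at an unadjusted p of 0.0206. The adjusted p was 0.828 by limma for all of these rows. Of the rows with a negative difference, MRPS27 had a log2 fold change of -0.82 (SE 0.40), MRPS23 -0.84 (SE 0.44) and the MRPL18 row without a description -1.52 (SE 1.14). None of these was called, and the adjusted p was 0.828 by limma for each.

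The median log2 fold change of the 70 members was 0.60, against -0.09 over all genes tested, and 54 of 70 were positive (77.1% against 42.4% of all genes). Both LLO 2 and LLO 5 entered these values. Without them the median was -0.11 against -0.15 over all genes, and 20 of 70 were positive, where the positive share of all genes was not counted. In the same fit 2 rows were called higher. MRPS25 and MRPL40 kept their call, while MRPL55 with a log2 fold change of 0.88 and MRPL23 with 2.16 lost theirs. MRPL23 also lost its call in 3 of the 10 fits that left out 1 sample. The count of rows called higher was 11 without LLO 1, 8 without LLO 3 and 11 without LLO 4, and 1 row was called lower without LLO 3. The share of all genes called higher rose as well, to 4.38%, 3.92% and 3.35%, and was 0.515% without LLO 2 and LLO 5.

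In medium follicles, 4 of 71 members (5.63%) were called higher in HMO, against 2.85% of all 8390 genes, and 0 were called lower (background 0.548%). None passed limma's adjusted p (background 0.0715%), where 9 had an unadjusted p under 0.05 (12.7%, against 8.67% of all genes). Without HMO 2, 3 members (4.35%) passed the adjusted p, as did 1.93% of all genes. With array weights 9 members passed it (12.7%, against 12.1% of all genes), and the exact Wilcoxon test called 1 higher and 0 lower. The called rows were the MRPL18 row without a description, the MRPS33 row ENSCHIG00000008210, MRPL30 and MRPL44. MRPL30 is a conserved large-subunit protein, and MRPL44 is a large-subunit protein with a fold like that of RNase III.

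The MRPL18 row (ENSCHIG00000025460) was at 229, 5.11, 125, 201 and 84.7 FPKM in HMO and at 5.67, 1.38, 4.17, 8.89 and 4.97 FPKM in LMO. HMO 2 lay within LMO and the other 4 HMO samples above every LMO sample. The log2 fold change was 3.85 (SE 0.85) with an unadjusted p of 0.000584 and an adjusted p of 0.149 by limma. MRPS33 (ENSCHIG00000008210) was at 26.9, 1.86, 23.4, 27.0 and 16.2 FPKM in HMO and between 0 and 4.38 FPKM in LMO, with a log2 fold change of 2.26 (SE 0.65, adjusted p = 0.252 by limma).

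MRPL30 (ENSCHIG00000024135) was at 119, 8.02, 139, 91.8 and 98.7 FPKM in HMO and at 8.46, 9.31, 33.3, 9.61 and 18.0 FPKM in LMO. HMO 2 was below every LMO sample and the other 4 HMO samples above them, with a log2 fold change of 2.21 (SE 0.70, adjusted p = 0.314 by limma). MRPL44 (ENSCHIG00000014243) was at 56.3, 3.87, 5.62, 11.2 and 38.9 FPKM in HMO and at 9.78, 1.88, 0.835, 6.70 and 6.52 FPKM in LMO. The groups of MRPL44 overlapped more widely, and its log2 fold change of 1.62 (SE 0.72, adjusted p = 0.563 by limma) lost its call in 5 of the 10 fits that left out 1 sample, among them the fit without LMO 2 (1.42).

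The rows of smallest p with a negative difference were MRPL37, a large-subunit protein (log2 fold change -0.70, SE 0.32, adjusted p = 0.571 by limma), MRPL15 (-0.65, adjusted p = 0.614) and MRPL4 (-0.66, adjusted p = 0.667). MRPL37 was at 32.7, 65.5, 31.3, 33.2 and 50.7 FPKM in HMO and at 68.4, 65.2, 58.7, 81.1 and 64.1 FPKM in LMO, where HMO 2 again lay among the LMO samples. No member separated HMO from LMO completely (background 0.846% above and 0.858% below). The median log2 fold change was 0.31 against -0.07 over all genes, and 48 of 71 were positive (67.6% against 43.5%). With every sample scaled to the same FPKM total, the median over all genes was -0.30 and that of members 0.06, with 39 of 71 positive. The members stood 0.38 above the median of all genes before this scaling and 0.36 after it. The count of rows called higher was 9 without HMO 3 and 9 without LMO 1, and 3 without LMO 2, where 2.62%, 3.9% and 2.25% of all genes were called higher.

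**Figure D4:**
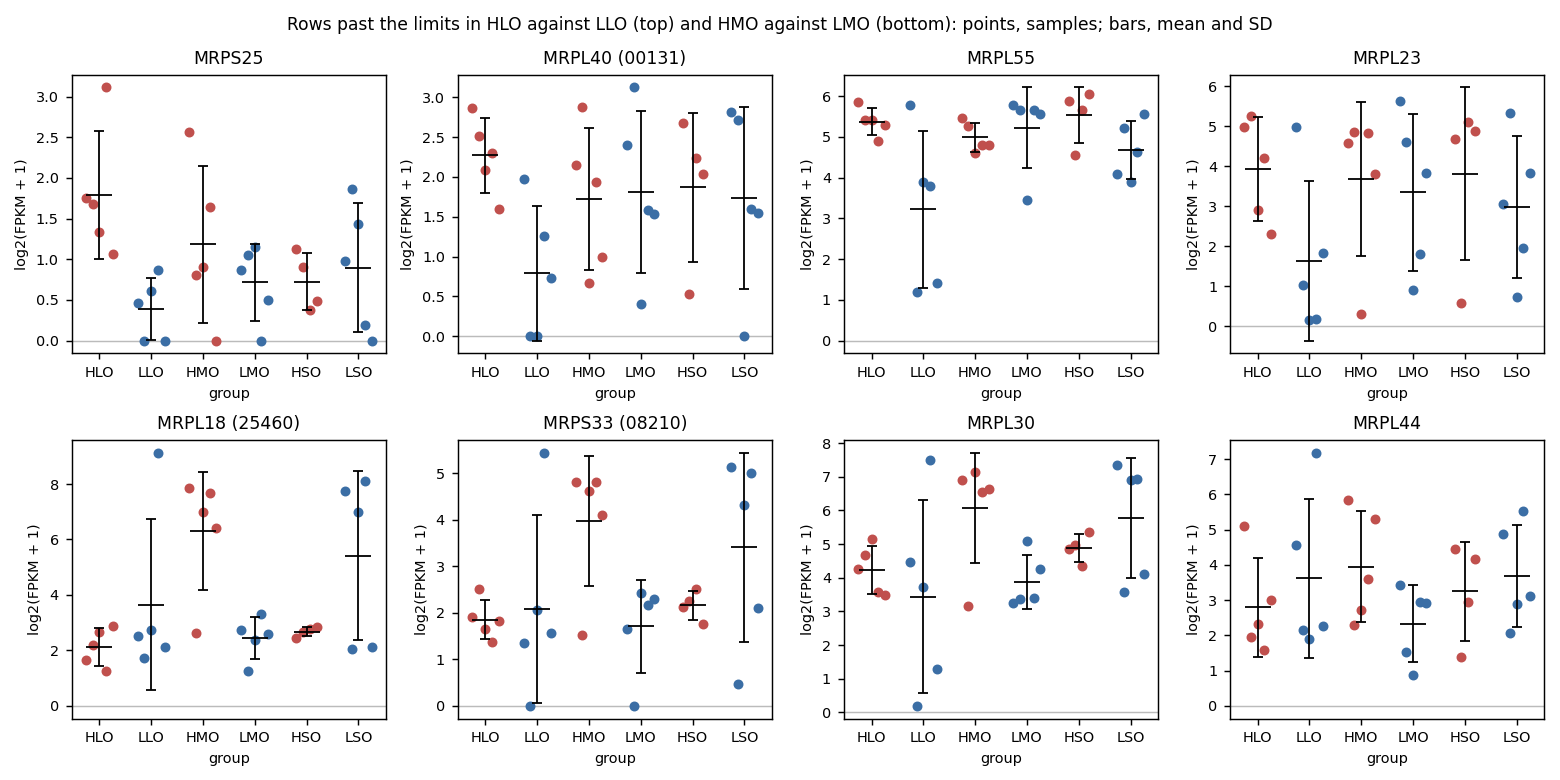
log2(FPKM + 1) (vertical axis) by group (horizontal axis) of the rows past the limits in HLO against LLO (top) and HMO against LMO (bottom), red for high and blue for low fertility. Points are samples and bars give the mean and SD (n = 5, HSO n = 4), and the digits in titles are the end of the identifier. In the bottom row, 3 of the 4 panels show 4 HMO, 1 LLO and 3 LSO samples above all others.

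The MRPL18, MRPS33 and MRPL30 rows were high in the same samples. The values of the MRPL18 row fell into 8 samples at 84.7 to 562 FPKM and 21 at 1.37 to 8.89 FPKM. The 8 were LLO 4 (562), LSO 4 (277), HMO 1 (229), LSO 1 (215), HMO 4 (201), LSO 3 (126), HMO 3 (125) and HMO 5 (84.7). The same 8 samples held MRPL30 at 91.8 to 181 FPKM against 0.143 to 40.1 in the other 21, and MRPS33 (ENSCHIG00000008210) at 16.2 to 42.4 FPKM against 0 to 4.73. These were 3 of 75 members (4.0%), and 145 of 9692 genes (1.5%) had all 8 of these samples above the other 21. The MRPL18 row is in both counts by construction, because its own values set the 8 samples, so the shares are not compared. The other rows of MRPL18 and MRPS33 did not follow. MRPL18 (ENSCHIG00000023286) was at 62.8 to 115 FPKM in the 8 samples and at 50.8 to 140.0 in the others, and MRPS33 (ENSCHIG00000023631) at 1.91 to 8.17 and 2.82 to 10.7. HSD17B2, a steroid dehydrogenase gene, was at 7.44 to 41.7 FPKM in the same 8 samples and at 0.143 FPKM or less in the other 21. The 8 samples were noticed after their values were seen and belong to 3 groups of both populations, so this is a description with no test.

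In small follicles, 0 of 70 members were called higher (background 0.919% of 8376 genes) and 0 lower (background 0.776%) by limma. By the exact Wilcoxon test, 2 members had an unadjusted p under 0.05 (2.86%, against 4.12% of all genes), and 0 were called (background 0.645%). None passed limma's adjusted p (background 0.0119%). An unadjusted p under 0.05 was found by limma for 1 member (1.43%, against 4.41% of all genes). The member was MRPS24, a conserved small-subunit protein, at 174, 199, 161 and 201 FPKM in HSO and at 70.0, 137, 84.4, 101 and 149 FPKM in LSO. Every HSO sample was above every LSO sample, as for 0.752% of all genes tested, with a log2 fold change of 0.81 (SE 0.32), an unadjusted p of 0.0274 and an adjusted p of 0.880 by limma. No member had every HSO sample below every LSO sample (background 1.3%). MRPL47 (log2 fold change 0.98, SE 0.47) and MRPL35 (0.68, SE 0.35) followed. In the other direction stood the MRPL18 row without a description (-2.73, SE 1.27), MRPL38 (-0.96, SE 0.49) and MRPL16 (-0.82, SE 0.47), and the adjusted p of these 5 rows was 0.880 by limma.

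The MRPL18 row was at 4.5, 5.31, 5.79 and 6.11 FPKM in HSO and at 215, 3.19, 126, 277 and 3.39 FPKM in LSO, so that LSO split into 3 high samples and 2 low ones. The median log2 fold change of members was 0.11 against -0.01 over all genes, and 40 of 70 were positive (57.1% against 49.2%). Counts depended on single samples. Without HSO 3, 5 members were called higher, without LSO 4 it was 1 and without LSO 5 it was 4, while 2 were called lower without LSO 2 and 1 without LSO 5. Of all genes, 2.49%, 1.35% and 2.4% were called higher without HSO 3, LSO 4 and LSO 5, and 1.8% and 1.85% lower without LSO 2 and LSO 5.

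**Figure D5:**
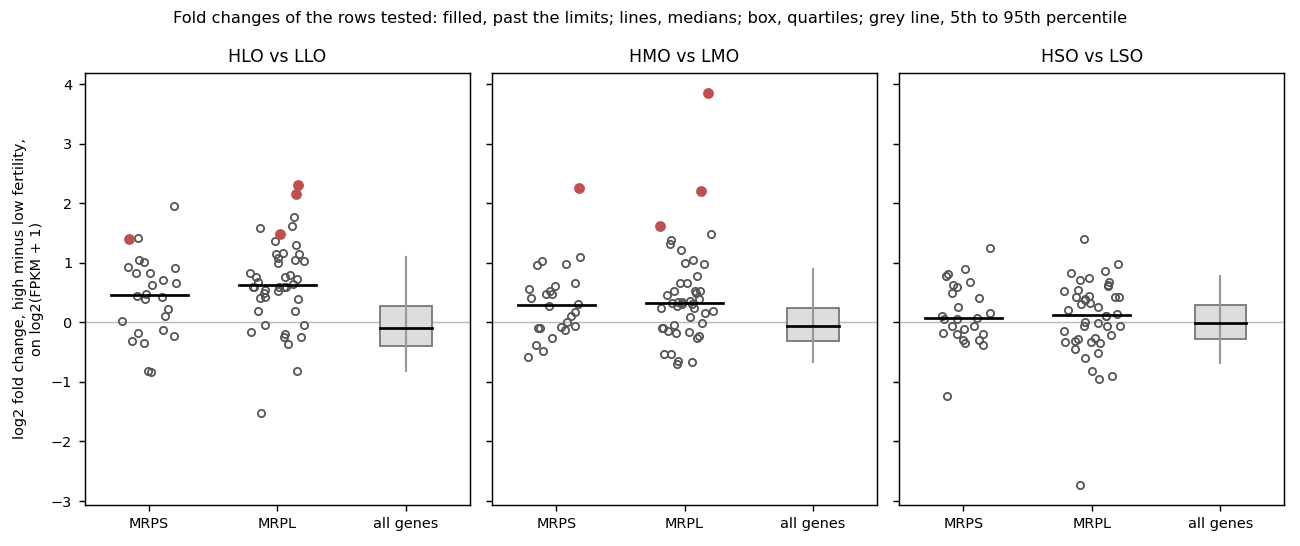
log2 fold change, high minus low fertility, on log2(FPKM + 1) (vertical axis) of the MRPS and MRPL rows tested in the 3 stages, with a line at the median, beside the median, quartiles and 5th to 95th percentile of all genes tested. Filled points passed the limits, 4 in HLO against LLO, 4 in HMO against LMO and 0 in HSO against LSO.

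Over all stages, with stage as a covariate, 0 of 75 members were called (background 0.526% of 9692 genes) by limma. None passed the adjusted p (background 0.0103%), and 5 had an unadjusted p under 0.05 (6.67%, against 9.99% of all genes). MRPS24 had the smallest, with a log2 fold change of 0.69 (SE 0.23, adjusted p = 0.423), followed by MRPL55 (0.93, adjusted p = 0.466) and MRPS25 (0.60, adjusted p = 0.468). The median of members was 0.33 against -0.04 over all genes and 64 of 75 were positive (85.3% against 42.8%). Without LLO 2, LLO 5 and LMO 2, the median was 0.02 against -0.08 over all genes, and 40 of 75 were positive. The positive share of all genes was not counted without these samples.

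Between follicle stages, limma's F-test with the population as a covariate gave an unadjusted p under 0.05 for 1 of 75 members (1.33%, background 1.66%) and an adjusted p under 0.05 for none. The row was MRPS34, a small-subunit protein particular to mitochondria (unadjusted p of 0.0348, adjusted p = 1.0). It was low throughout, at 0.136 ± 0.323 FPKM (SD, n = 10) in large, 0.375 ± 0.510 (n = 10) in medium and 0.585 ± 0.469 (n = 9) in small follicles, and no member was called without LLO 2, LLO 5 and LMO 2.

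Whether the difference between populations depended on the stage was asked with an interaction test. It gave an unadjusted p under 0.05 for 5 of 75 members (6.67%, background 7.89%) and an adjusted p under 0.05 for none by limma. The rows were the MRPL18 row without a description (adjusted p = 0.256), MRPL37 (adjusted p = 0.387), MRPS33 (ENSCHIG00000008210, adjusted p = 0.498), MRPL55 (adjusted p = 0.578) and MRPS25 (adjusted p = 0.604). For the MRPL18 row, the log2 fold changes were -1.52, 3.85 and -2.73 in large, medium and small follicles.

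The subunits were also counted apart. In large follicles, 1 of 26 MRPS rows and 3 of 44 MRPL rows were called higher (1.78% of all genes), with median log2 fold changes of 0.46 and 0.62 against -0.09 over all genes. Without LLO 2 and LLO 5 these medians were -0.07 and -0.14, against -0.15. In medium follicles it was 1 of 26 and 3 of 45 (2.85% of all genes), with medians of 0.29 and 0.32 against -0.07, and in small follicles 0 of 26 and 0 of 44, with medians of 0.07 and 0.12. By class in large follicles, the median was 0.82 for 15 conserved small-subunit rows and -0.17 for 9 small-subunit rows particular to mitochondria, of which 0 and 1 were called. Without LLO 2 and LLO 5 these were -0.03 and -0.60. In medium follicles the medians of the same classes were both 0.29, and in small follicles 0.10 and -0.06. No difference between classes was tested.

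Other genes of mitochondrial translation were given beside the members. Of 5 mitochondrial ribosomal proteins with other symbols, CHCHD1 had a median of 219 FPKM (109.8 to 593) and AURKAIP1 113 FPKM (8.84 to 195), both of the small subunit, whereas DAP3 was at 17.4, GADD45GIP1 at 2.11 and PTCD3 at 1.26 FPKM. None of the 5 was called in any of the 3 stages by limma, with an unadjusted p of 0.05 or more in each. Of the assembly factors, 9 of 27 rows were above 0.5 FPKM in all samples, among them TFB1M, a methyltransferase of ribosomal RNA (median 88.9 FPKM), and ERAL1, a chaperone of ribosomal RNA (32.4 FPKM). In the stage comparisons, 1 of 18 assembly factors was called, the GTPase GTPBP10, higher in HMO (log2 fold change 1.10, adjusted p = 0.506 by limma). Of 14 translation factors, TSFM, the exchange factor of the elongation factor TUFM, was called higher in HMO (1.99, adjusted p = 0.575 by limma). Of all genes, 2.85% were called higher in HMO. Of 10 mitochondrial aminoacyl-tRNA synthetases tested in large follicles, FARS2, which charges phenylalanine, was called higher in HLO (2.68, SE 0.63, adjusted p = 0.828 by limma). There, 1.78% of all genes were called higher. In medium follicles 0 of 8 synthetases were called, and in small follicles 0 of 10.

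The mRNAs that the mitochondrial ribosome translates were set beside the members. Of the 13 mitochondrially encoded mRNAs, 11 were called lower in HMO than in LMO (background 0.548% of all genes) and 0 higher (background 2.85%). Members had 4 rows called higher and 0 lower. None of the 13 passed limma's adjusted p. ND1 had a log2 fold change of -3.12 (SE 0.76, adjusted p = 0.162 by limma). In large and small follicles 0 of 13 were called in either direction by limma, with an unadjusted p of 0.05 or more for each. The direction was not the same at every stage. In medium follicles 0 of 13 had a positive log2 fold change (median -1.92, against -0.07 over all genes). It was 13 of 13 in large follicles (median 0.94, against -0.09) and 12 of 13 in small follicles (0.63, against -0.01). Their summed FPKM ranged from 98.8 to 353 in HMO and from 345 to 4611 in LMO, and from 11.2 to 5919 over all samples, while the members' sum ranged from 6128 to 10381 in HMO and from 3353 to 9069 in LMO.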

How the data were processed

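RNA enriched with oligo(dT) beads was sequenced from 29 pooled oocyte samples. The authors aligned reads to the goat genome, kept unique matches and used picard against duplicates. Cufflinks with the Ensembl annotation then gave the FPKM of each gene, which were deposited as 1 table. The aligner and genome build are not given in the sources used here. Columns were assigned by name, and 1 sample column without a matching label was not used. No pair of samples held identical values. FPKM are not counts. The study lists supplementary tables of sequence counts and mapping information, which were not used here. Depth was therefore not taken into account, and how far the precision of FPKM reaches at low levels is not stated.

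The members and lists were chosen with earlier results of these data known. Tests were made on log2(FPKM + 1) with limma 3.58.1 in R 4.3.3 (moderated test with trend), for every gene that passed 0.5 FPKM in 4 or more of the samples entering a fit. The study names no test, so a call needed a log2 fold change beyond 1 together with an unadjusted p under 0.05, the limits it drew, and p-values were adjusted by Benjamini-Hochberg over all genes tested. Stages and the interaction were tested by F-tests at an unadjusted p of 0.05. Lists were described by counts and medians. The procedures were tested on simulated data.

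Named members were the 5 highest and the 5 lowest by median above 0 in any sample, rows called or separated in a comparison, up to 3 rows of smallest p per direction and test, and symbols carried by more than 1 row. MRPL10, MRPL11, MRPL12, MRPS12, MRPL45, MRPL34, MRPL52, MRPS28, MRPL17 and MRPL20 in the samples numbered 3 were named after their values were seen. Alternatives were pseudocounts of 0.1 and 0.5, no filter or 1 FPKM, median-of-ratios factors, quantile normalization, the same FPKM total in every sample, an exact Wilcoxon test, array weights, the replicate number as a block, 1 fit over all samples, and each sample left out. Leaving out LLO 2, LLO 5 and LMO 2, and using only symbols carried by 1 row, were chosen after seeing the data. Figures were drawn with matplotlib 3.10.9.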

Additional observations from a re-analysis of the deposited data

Results flagged for a closer look

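In a group of 4 or 5 samples, a sample was picked out when its gap to the nearest other sample, as a part of the range of the group, passed Dixon's 95% critical value. Of 70 groups examined, 11 held such a sample. The limit gives about 1 in 20 for normally distributed values. Most values here were not on a log scale, and many rows were picked by their p-values, so the 11 are not read as an excess. The causes were not tested.

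The summed FPKM of members was 3353 in LMO 2, against 8409 to 9069 in the other LMO samples. MRPS rows made up 46.8% of the members' FPKM in HMO 3, against 33.3 to 36.0% in the other HMO samples. For the rows that differed in large follicles, MRPS25 was at 7.67 FPKM in HLO 4 against 1.09 to 2.38, MRPL55 at 54.4 FPKM in LLO 1 against 1.27 to 13.9, MRPL23 at 30.4 FPKM in LLO 1 against 0.108 to 2.56, and MRPS27 at 1.41 FPKM in HLO 2 against 3.34 to 3.76. The MRPL18 row without a description was at 562 FPKM in LLO 4 and at 2.35 to 5.63 in the other LLO samples. In medium follicles, MRPL15 was at 33.0 FPKM in HMO 1 against 11.8 to 17.0, and MRPL4 at 16.1 FPKM in LMO 2 against 2.32 to 5.87. In small follicles, LSO 1 held both MRPL38 at 14.6 FPKM, against 1.82 to 2.77, and MRPL16 at 80.2 FPKM, against 15.8 to 28.9.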

How the results depend on the processing

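None of the rows named for the fertility comparisons reversed the sign of its fold change in the alternatives run. The signs of the other members were not followed row by row. In HLO against LLO, 54 of 70 members were positive, and 20 of 70 without LLO 2 and LLO 5. For members called higher in HLO (4), 1 fit over all samples gave 11, array weights 8, the exact Wilcoxon test 2, median-of-ratios factors 7, the replicate block 7 and the fit without LLO 2 and LLO 5 2. For members called higher in HMO (4), the exact Wilcoxon test gave 1, the replicate block 10 and symbols carried by 1 row 2. Array weights called 5 lower in HMO (0). For HSO (0 and 0), median-of-ratios factors gave 2 higher, quantile normalization 1 higher and 1 lower, the replicate block 1 higher and 3 lower, and 1 fit over all samples, array weights and the same FPKM total 1 lower each. Of all genes, median-of-ratios factors called 1.17% higher, and quantile normalization 0.943% higher and 0.728% lower. The block called 1.66% higher and 2.17% lower, and the last 3 settings 0.86%, 0.955% and 1.64% lower. Over all stages (0), median-of-ratios factors gave 4, the pseudocount of 0.1 3, quantile normalization 1 and the replicate block 1. Of all genes, 0.939%, 1.67%, 0.464% and 0.598% were called under these settings, against 5.33%, 4%, 1.33% and 1.33% of members. Between stages (1), array weights gave 4, the same FPKM total 2, and the fit without LLO 2, LLO 5 and LMO 2 0. The shares of all genes were 8.43%, 1.76% and 0.774%, against 5.33%, 2.67% and 0% of members. In the interaction (5), array weights gave 9, the pseudocount of 0.1 3, quantile normalization 9 and the replicate block 14. Over all genes the shares called in the interaction were 16.7%, 8.39%, 10.1% and 14.5% under these settings, against 12%, 4%, 12% and 18.7% of members. For HLO, 4.12% of all genes were called higher in 1 fit, 3.69% with array weights, 0.6% by the exact Wilcoxon test, 2.81% with median-of-ratios factors and 3.36% with the block. For HMO, array weights called 8.16% of all genes lower, the block 3.84% higher and the exact Wilcoxon test 1.31% higher. For symbols carried by 1 row, no share over all genes was counted. The causes were not tested.

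Leaving out 1 sample at a time gave 3 to 11 members higher in HLO and 0 to 1 lower, 3 to 9 higher in HMO and 0 lower, and 0 to 5 higher in HSO and 0 to 2 lower. It gave 0 to 6 over all stages (6 without LLO 1, 5 without HSO 3), 0 to 11 between stages (11 without LLO 4) and 3 to 11 in the interaction (11 without LLO 4). Over all stages, 8% of members and 1.1% of all genes were called without LLO 1, and 6.67% and 0.857% without HSO 3. Without LLO 4, it was 14.7% and 5.1% between stages, and 14.7% and 11.6% in the interaction. In the fits leaving out 1 sample, the median log2 fold changes of members were 0.29 to 0.92 for HLO against LLO, 0.10 to 0.50 for HMO against LMO and -0.03 to 0.32 for HSO against LSO. Over the other alternatives they were -0.11 (without LLO 2 and LLO 5) to 0.75, 0.00 to 0.41 and 0.00 to 0.21. The median over all genes shifted by -0.17 (HLO against LLO) and -0.26 (HMO against LMO) with array weights and by -0.24 (HMO against LMO) with the same FPKM total. Same-numbered samples of the populations correlated between -0.48 and 0.71 in their deviations from the group means. The correlation was over 0.1 in 10 of 14 pairs, and 7 of 14 correlated best with their own number. Because not every pair passed 0.1 and the labels do not say what a number marks, the numbers were not taken as pairs, although the replicate block raised the members called higher in HMO from 4 to 10 and those passing the adjusted p from 0 to 4 (1.51% of all genes). Summed over symbols carried by 1 row, HSO held 8008 FPKM. FPKM without counts limit what can be said of rows under 0.5 FPKM.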
